A study of Mus musculus with 15 samples.

Results

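Proteasome subunit mRNAs were followed in RAW macrophages, an established mouse cell line, after exposure to extracellular vesicles (EVs), small membrane particles that cells release, from the plasma of irradiated mice. The genes were taken by symbol as Psmb5, Psmb7, Psmb8, Psmb9, Psmb10, Psmc2 and Psmd7. Of these 7, 6 had a row among the 561 genes of the nanoString nCounter Mouse Immunology Panel, and Psmb8 was not analysed here. All 15 samples of the series were used, in 5 groups of 3. The 4 irradiated groups were compared with the same 3 sham EV samples. Plasma EVs had been isolated by differential centrifugation from female C57BL/6J mice of 6 to 8 weeks. The donors were sham mice, or mice that had received whole-body irradiation from a cesium source at 2 Gy or 9 Gy and were bled 3 or 7 days later. Every group, sham included, also received 1 µg/ml lipopolysaccharide (LPS), a bacterial activator of macrophages, for the same 24 hours. The series therefore holds no cells without LPS and none without EVs, and the cells themselves were not irradiated. The labels give 30000000 EVs per exposure and lysis in Trizol, whereas the methods of the study give a lower EV number and RLT lysis buffer. The number of mice behind a sample was not stated for this experiment. Nothing in the labels says that replicates came from separate cultures, so p-values measure the spread between these samples, which may be technical.

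The proteasome is the protease complex that degrades ubiquitin-tagged proteins and supplies most of the peptides that MHC class I molecules display. Its barrel-shaped core carries the cutting sites, and a regulatory particle at the end of the barrel binds, unfolds and feeds in the substrate. Psmb5 and Psmb7 encode constitutive catalytic subunits, with chymotrypsin-like and trypsin-like activity respectively. Under interferon, NF-κB or LPS signaling, cells make inducible catalytic subunits, which replace the constitutive ones in newly built cores and form the immunoproteasome. Psmb9 encodes the inducible subunit LMP2 and Psmb10 encodes MECL-1, which takes the place of the Psmb7 product. Psmc2 encodes an ATPase of the base of the regulatory particle, and Psmd7 encodes a structural subunit of its lid. In activated macrophages the immunoproteasome is known for shaping the peptides presented to CD8+ T cells.

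Promoter sequence is shown for 3 of the members because Psmb9 and Psmb10 moved together in these data while Psmb5 moved less. The bases come from RefSeq (GRCm38.p6), which held an entry for 5 of the 7 members, and run 5′ to 3′ on the strand of the gene up to its annotated start. Capitals mark a GC box (GGGCGG) and a CCAAT box, read as its reverse complement, in Psmb9, and an antioxidant response element (TGACNNNGC) in Psmb5.
Psmb9: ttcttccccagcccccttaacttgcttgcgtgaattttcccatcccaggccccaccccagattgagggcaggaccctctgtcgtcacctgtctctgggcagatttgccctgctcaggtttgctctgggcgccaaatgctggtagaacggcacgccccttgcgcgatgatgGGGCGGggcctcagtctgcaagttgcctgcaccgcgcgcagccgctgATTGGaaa
Psmb10: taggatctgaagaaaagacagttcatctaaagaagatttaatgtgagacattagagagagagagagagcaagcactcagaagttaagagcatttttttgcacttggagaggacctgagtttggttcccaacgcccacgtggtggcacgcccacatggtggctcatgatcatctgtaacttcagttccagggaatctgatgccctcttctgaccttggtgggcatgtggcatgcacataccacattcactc
Psmb5: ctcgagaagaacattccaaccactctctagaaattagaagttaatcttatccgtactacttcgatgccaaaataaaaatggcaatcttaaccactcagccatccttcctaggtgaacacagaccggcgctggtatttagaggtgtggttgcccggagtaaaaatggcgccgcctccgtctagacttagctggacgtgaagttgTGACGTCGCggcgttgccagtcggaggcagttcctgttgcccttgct
The Psmb9 sequence is the whole gap between Psmb9, on the minus strand, and the neighbouring gene Tap1, a peptide transporter subunit on the plus strand. This gap spans 225 bases (chr17:34187331-34187555), so it lies upstream of both genes at once. The sequences of Psmb10 (chr8:105938393-105938642) and Psmb5 (chr14:54617996-54618245) are the 250 bases before each start, both on the minus strand. The motifs searched were GAAANNGAA for interferon regulatory factors, TTCNNNGAA, the interferon-gamma activated sequence, the NF-κB consensus, TGACNNNGC, GGGCGG and CCAAT, each searched on both strands. The first 3 matched none of the printed windows. Over the 250 bases before the start in 32851 mouse promoters of the table, they occurred in 7.13%, 7.02% and 7.25%. The antioxidant response element occurred in 10.2%, the GC box in 32.7% and the CCAAT box in 33.8%. A match or its absence describes these letters only.

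The 9 Gy day 3 group stood apart in depth, and both 9 Gy groups in the ratio of total to housekeeping counts, which bears on every comparison with them. Total counts lay between 43176 and 87899 in the 9 Gy day 3 group and between 453178 and 837995 elsewhere. Replicates 1 and 2 of that group are day 3 by title but day 7 by another label, and the title was followed. Counts were divided by the sample's geometric mean over 14 housekeeping genes and brought back to the average level of the 15 samples. For 9 Gy that mean was 69.2 to 124 counts at day 3 and 801 to 872 at day 7, and it was 448 to 603 in the other groups. The total over this mean ran from 553 to 709 in the 9 Gy groups and from 1250 to 1401 in the others, so the choice of scaling moves all genes of a 9 Gy sample together. The median log2 change of the 269 genes tested (those averaging 20 counts or more) against sham EVs was -0.46 at day 3 and -0.45 at day 7 under housekeeping scaling. It was 0.01 and 0.03 under TMM scaling, which centres the genes on each other, and 0.56 and 0.65 under total-count scaling. Of the 13 housekeeping genes tested, 3 were higher and 6 lower at day 3, and 4 were higher and 4 lower at day 7 (edgeR, Benjamini-Hochberg adjusted p below the threshold of 0.05). Directions of the subunits are therefore given with their values under TMM and total-count scaling. Counts are shares of the RNA, so fewer cells and less mRNA per cell cannot be told apart.

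All 8 macrophage markers with a row were detected, with a mean of at least 20 counts in every group but 9 Gy day 3, where 6 of 8 reached it. Their summed housekeeping-scaled count was 5003 to 8100 with sham EVs, 5097 to 7047 with 2 Gy EVs and 2475 to 4029 with 9 Gy EVs. For the 8 T cell markers the sum was 153 to 185 with sham EVs and 76.1 to 119 with 9 Gy EVs, and for the 6 B cell markers 94.8 to 118 and 75.2 to 116. The 3 NK cell markers summed to 21.7 or less with sham EVs and 20.5 or less with 9 Gy EVs. No gene was listed below 1 count in any sample. Under housekeeping scaling 1 of 8 macrophage markers was higher and 5 lower on either 9 Gy day, both T cell markers tested were lower, and of 2 B cell markers 0 and 1 were lower at days 3 and 7, while no NK cell marker passed the filter. The share of all 269 genes called lower was 41.3% and 49.1% on these days. Under total-count scaling 3 macrophage markers were higher on either day and 1 and 0 were lower, no T cell marker passed the test, and 1 B cell marker was higher on either day, where 45.0% and 53.2% of all genes were higher and 12.3% and 11.5% lower. The part of these shifts in the subunit results was not tested.

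The inducible catalytic subunits were lower with 9 Gy EVs than with sham EVs under housekeeping scaling, whether the EVs were taken at day 3 or day 7, and did not pass the test in either 2 Gy group. Psmb9 stood at 208.6, 244.6 and 201.1 housekeeping-scaled counts in the 3 sham EV samples (218 ± 23.3, mean ± SD, n = 3). It was 207.8, 234.2 and 224.1 in the 2 Gy group of day 3 and 202.5, 233.7 and 247.8 in that of day 7. These 9 samples overlapped group by group. In the 9 Gy group Psmb9 fell to 47.4, 60.1 and 72.7 at day 3 (60.0 ± 12.6) and to 71.3, 82.5 and 110.2 at day 7 (88.0 ± 20). Under housekeeping scaling every 9 Gy sample lay below every sham and every 2 Gy sample, while under total-count scaling the 9 Gy and 2 Gy samples overlapped. Of all genes tested, 36.1% lay wholly lower with 9 Gy than with 2 Gy EVs under housekeeping scaling. The share against sham EVs was not counted. The log2 fold change against sham EVs was -1.83 (SE 0.21, 3.54-fold lower) at day 3, with an adjusted p of 9.59e-06 by edgeR (quasi-likelihood F test, Benjamini-Hochberg over all 269 genes). At day 7 it was -1.31 (SE 0.17, 2.48-fold lower, edgeR adjusted p = 2.79e-05), and under total-count scaling it was -0.22 (edgeR adjusted p = 0.161) and not called. The day 3 values rest on raw counts of 8, 15 and 22, and the exact 95% Poisson interval of the lowest of them ran from 3.45 to 15.8 counts. Such intervals cover counting error only.

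Psmb10 behaved alike. Its scaled counts were 301.6, 352.3 and 314.0 with sham EVs (323 ± 26.4, n = 3). They were 333.2, 424.8 and 379.6 in the 2 Gy group of day 3 and 359.9, 375.3 and 363.5 in that of day 7. All 3 samples of the 2 Gy day 7 group thus lay above all sham samples, a difference that did not pass the test (log2 fold change 0.18, 95% interval -0.16 to 0.53, edgeR adjusted p = 0.944). In the 9 Gy group Psmb10 fell to 112.6, 116.1 and 128.8 at day 3 (119 ± 8.51) and to 119.5, 131.6 and 188.3 at day 7 (146 ± 36.7). The log2 fold change against sham EVs was -1.43 (SE 0.19, 2.69-fold lower, edgeR adjusted p = 2.58e-05) at day 3 and -1.14 (SE 0.16, 2.20-fold lower, edgeR adjusted p = 5.40e-05) at day 7. Under total-count scaling the day 7 value was -0.06 (edgeR adjusted p = 0.697) and not called. Replicate 3 of the 9 Gy day 7 group was the highest of the 9 Gy samples for both inducible subunits.

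**Figure D1:**
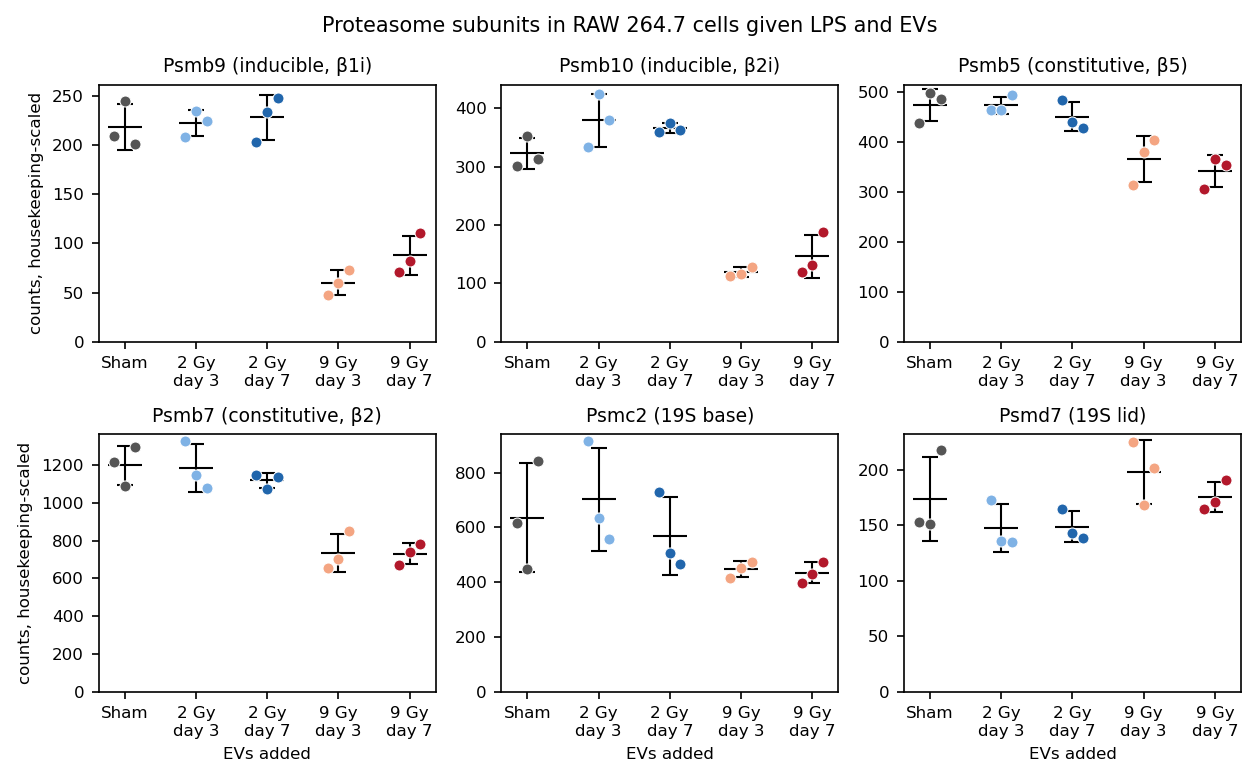
Housekeeping-scaled counts (vertical axes, from 0) of the 6 subunits in each sample, by the EVs added to LPS-treated RAW macrophages (horizontal axes). Points are samples and bars mean ± SD of 3: Psmb9 and Psmb10 sit at 47.4 to 188.3 with 9 Gy EVs, below all other samples, while Psmd7 overlaps across doses.

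The constitutive catalytic subunits were also lower with 9 Gy EVs under housekeeping scaling, by less. Psmb7 was at 1213.8, 1089.8 and 1293.7 scaled counts with sham EVs (1199 ± 103, n = 3). It was at 652.0, 704.7 and 848.7 at day 3 of 9 Gy (735 ± 102) and at 671.2, 738.0 and 780.1 at day 7 (730 ± 54.9). Neither 9 Gy group overlapped sham EVs under housekeeping scaling, while under total-count scaling both lay wholly higher. The share of all genes that separated from sham EVs was not counted. The housekeeping-scaled log2 fold change of Psmb7 was -0.70 (SE 0.13, edgeR adjusted p = 0.000671) at day 3 and -0.72 (SE 0.13, edgeR adjusted p = 0.000365) at day 7. Psmb5 went from 437.1, 496.8 and 485.0 with sham EVs (473 ± 31.6) to 314.2, 380.4 and 402.9 at day 3 of 9 Gy (366 ± 46.1) and 305.9, 366.2 and 354.5 at day 7 (342 ± 32.0). Its log2 fold change was -0.36 (SE 0.13, edgeR adjusted p = 0.0301) at day 3 and -0.47 (SE 0.12, edgeR adjusted p = 0.00519) at day 7. The day 3 call of Psmb5 was lost without any one of sham replicates 2 and 3 and 9 Gy day 3 replicates 1 and 2 (-0.39 to -0.27, highest edgeR adjusted p 0.11). The direction of both genes hung on the scaling. Under TMM scaling neither passed the test, with Psmb7 at -0.23 and -0.23 and Psmb5 at 0.11 and 0.015 at days 3 and 7. Scaled to the housekeeping genes averaging 100 counts or more, Psmb5 was at -0.18 (edgeR adjusted p = 0.248) and -0.27 (edgeR adjusted p = 0.0659) and also lost both calls. Under total-count scaling Psmb5 turned higher at 0.66 and 0.64, past the threshold on both days. Psmb7 stood at 0.31 and 0.38 there, past the threshold at day 7 alone.

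In edgeR the regulatory particle gave no call against sham EVs under housekeeping scaling with all samples as titled. Psmc2 was at 616.8, 446.9 and 843.4 scaled counts with sham EVs (636 ± 199, n = 3), the widest spread of any subunit in that group. It was at 414.9, 452.4 and 472.2 at day 3 of 9 Gy and 397.3, 429.7 and 475.0 at day 7, so both groups overlapped sham replicate 2. The log2 fold change was -0.51 (95% interval -1.04 to 0.03, edgeR adjusted p = 0.103) at day 3 and -0.55 (-1.06 to -0.036, edgeR adjusted p = 0.0598) at day 7. Under TMM scaling Psmc2 was at -0.03 and -0.07, and total-count scaling turned it to 0.51 and 0.54, none past the threshold. The housekeeping-scaled values also moved with single sham samples. Without sham replicate 2 Psmc2 passed the test on both days, at -0.71 (edgeR adjusted p = 0.0262) and -0.75 (edgeR adjusted p = 0.0146), and without sham replicate 3 it was at -0.25 (edgeR adjusted p = 0.415) and -0.29 (edgeR adjusted p = 0.32). DESeq2 with the same scaling called it lower at day 7 (-0.55, adjusted p = 0.0355), as did edgeR with the samples of conflicting label placed at day 7 (adjusted p = 0.0315), and with counts under 20 raised to 20 edgeR called it lower at day 3 (-0.81, adjusted p = 0.00942). Psmd7 had fitted changes above 0 on both days. Its scaled counts were 152.6, 151.5 and 217.6 with sham EVs (174 ± 37.9), 225.2, 168.2 and 201.4 at day 3 of 9 Gy (198 ± 28.7) and 164.2, 171.1 and 190.7 at day 7 (175 ± 13.7). The groups overlapped, with log2 fold changes of 0.18 (95% interval -0.22 to 0.58) and 0.01 (-0.36 to 0.38). Under TMM scaling Psmd7 passed the test as higher on both days, at 0.65 (edgeR adjusted p = 0.0141) and 0.50 (adjusted p = 0.0284). Under total-count scaling it was higher at 1.20 and 1.11.

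Counted over the 6 subunits under housekeeping scaling, 4 passed the test as lower at day 3 of 9 Gy and 0 as higher, namely the catalytic subunits of both kinds. Of all genes tested in that comparison 52.4% were called, 41.3% as lower and 11.2% as higher. The same 4 were lower with 9 Gy day 7 EVs, against 61.0% of all genes called, 49.1% lower and 11.9% higher. The median log2 change of the 6 subunits was -0.60 and -0.63 on these days. Calls as lower were thus frequent on the whole panel, and with 6 subunits such a count is not read as particular to them. Without the samples of conflicting day label 1 sample of 9 Gy day 3 remains, assumed to vary like the other groups. Psmb9 and Psmb10 were then called lower at day 3, with 26.0% of all genes, and Psmb5 (-0.23) and Psmb7 (-0.50) were not. TMM scaling called Psmb9 and Psmb10 lower and Psmd7 higher on both days. The background was then 22.3% lower and 21.9% higher at day 3, and 28.3% lower and 27.9% higher at day 7. The TMM log2 fold changes were -1.35 and -0.83 for Psmb9 and -0.96 and -0.66 for Psmb10. Total-count scaling, with 12.3% of genes lower and 45.0% higher at day 3, still called Psmb9 (-0.81) and Psmb10 (-0.41) lower on that day. At day 7, with 11.5% lower and 53.2% higher, it called neither. No scaling tried turned the sign of either gene against sham EVs.

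**Figure D2:**
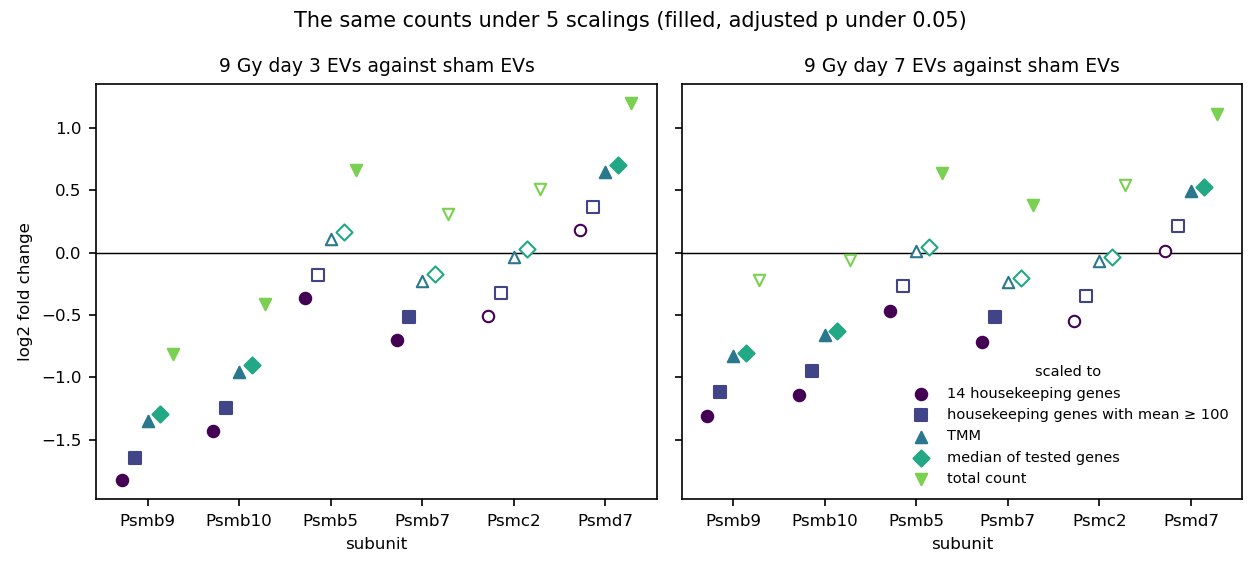
Log2 fold change (vertical axis) of each subunit (horizontal axis) against sham EVs for 9 Gy day 3 EVs (left) and 9 Gy day 7 EVs (right) under 5 scalings of the same counts, marked by symbol. Filled symbols passed an adjusted p of 0.05 in edgeR. Psmb9 and Psmb10 lie below 0 under all 5 scalings and Psmd7 above 0, while Psmb5 and Psmb7 cross 0.

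With 2 Gy EVs no subunit passed the test against sham EVs at day 3 or day 7, and of all 269 genes 0% did on either day. At an unadjusted p under 0.05 edgeR counted 7 genes at day 3 and 1 at day 7, none of them a subunit, and DESeq2 with the same scaling called 1 gene at day 3 and 0 at day 7. For the inducible subunits the intervals did not reach the changes seen with 9 Gy EVs, both under housekeeping scaling. The 95% interval of the log2 change of Psmb9 ran from -0.34 to 0.39 at day 3 and from -0.30 to 0.43 at day 7, and that of Psmb10 from -0.11 to 0.58 and from -0.16 to 0.53. For Psmc2 they were wider, from -0.37 to 0.66 and from -0.68 to 0.35, and at day 7 took in its 9 Gy value.

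**Figure D3:**
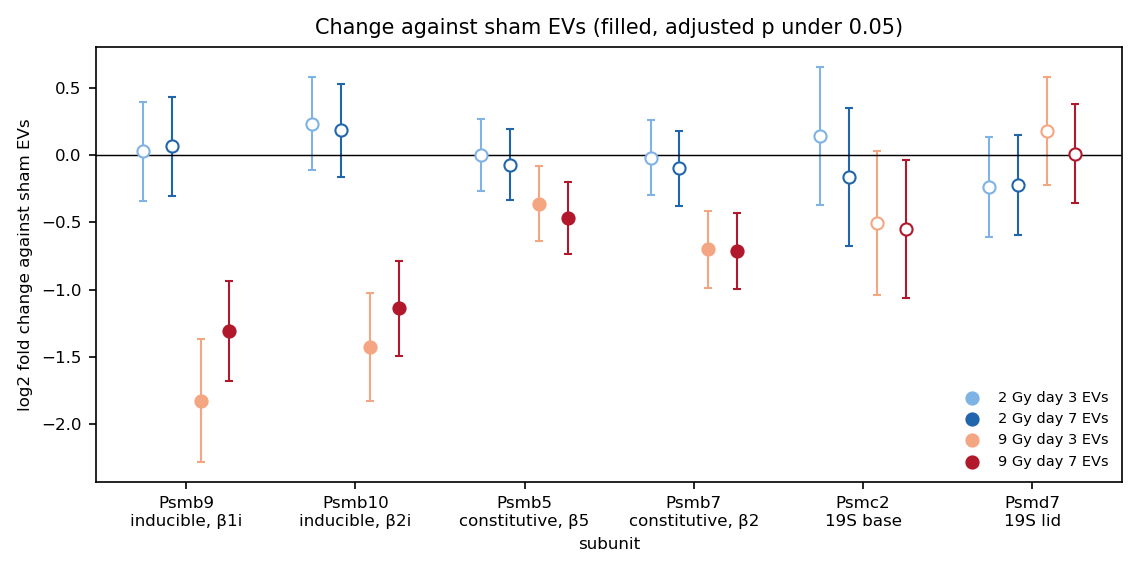
Log2 fold change against sham EVs (vertical axis) with its 95% interval for each subunit (horizontal axis), in colour by the EVs added, from the edgeR fit of housekeeping-scaled counts. Filled points passed an adjusted p of 0.05. All 2 Gy points are open and lie between -0.24 and 0.23, and the 9 Gy points of Psmb9 and Psmb10 lie between -1.83 and -1.14.

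Set directly against each other, both 9 Gy groups together differed from both 2 Gy groups in all 6 subunits under housekeeping scaling, a comparison in which 67.7% of all genes were called, 52.0% lower and 15.6% higher. Psmb9 (-1.61, SE 0.14, edgeR adjusted p = 1.87e-07) and Psmb10 (-1.49, SE 0.12, edgeR adjusted p = 1.56e-07) were lower by 3.06-fold and 2.81-fold. Psmb7 (-0.65), Psmc2 (-0.52) and Psmb5 (-0.38) were lower by less, and Psmd7 was higher (0.33, SE 0.13, edgeR adjusted p = 0.0348). The call of Psmd7 was lost in 7 of the 12 fits that left out 1 sample, with values of 0.28 to 0.32. It was also lost without the count filter (0.33, edgeR adjusted p = 0.0633) and with counts under 20 raised to 20 (0.18, edgeR adjusted p = 0.19). Without the samples of conflicting day label Psmc2 (-0.48, edgeR adjusted p = 0.0983) and Psmd7 (0.34, edgeR adjusted p = 0.0772) were both not called, nor with these samples placed at day 7 (edgeR adjusted p = 0.0619 and 0.0568). Scaled to the housekeeping genes averaging 100 counts or more, Psmc2 (-0.33, edgeR adjusted p = 0.108) and Psmb5 (-0.19, edgeR adjusted p = 0.0676) lost the call. The 6 samples of each dose did not overlap for the 4 catalytic subunits under housekeeping scaling, all lower, and overlapped for Psmc2 and Psmd7. Of all genes tested 36.1% lay wholly lower and 7.81% wholly higher in this way. Under total-count scaling, with 8.92% wholly lower and 46.1% wholly higher, Psmb9, Psmb10 and Psmc2 overlapped and Psmb5, Psmb7 and Psmd7 were wholly higher. Under TMM scaling Psmb9 (-1.15) and Psmb10 (-1.03) stayed lower and Psmd7 (0.78) higher, with 29.7% of all genes lower and 33.1% higher. The other 3 subunits did not pass the test there. Under total-count scaling, with 13.4% lower and 62.5% higher, Psmb9 (-0.49) and Psmb10 (-0.37) were lower and the other 4 subunits were higher, Psmd7 the most (1.45).

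The day on which the EVs were taken, as given by title, made no difference that passed the test. Replicates 1 and 2 of the 9 Gy day 3 group are day 7 by another label, so the 9 Gy comparison of days rests on the titles. Day 7 against day 3 gave 0% of all genes and 0 of 6 subunits in the 2 Gy groups, and likewise 0% and 0 of 6 in the 9 Gy groups. At an unadjusted p under 0.05 edgeR counted 4 genes in the 2 Gy groups and 6 in the 9 Gy groups, and DESeq2 with the same scaling called 0 in both. Psmb9 was the only subunit among these, higher at day 7 than at day 3 of 9 Gy by 0.52 on the log2 scale (95% interval 0.05 to 0.98), with an unadjusted p of 0.0311 and an edgeR adjusted p of 0.986. Its samples overlapped between the days under housekeeping scaling and did not under total-count scaling. Psmb9 and Psmb10 were both higher at day 7 in each of the 3 same-numbered pairs of 9 Gy, which include the samples of conflicting label. With the replicate number as a block in a fit of the 9 Gy groups alone, Psmb9 was at 0.55 (edgeR adjusted p = 0.439) and Psmb10 at 0.31 (edgeR adjusted p = 0.685). No subunit passed a test of whether the change between days differed between doses, with Psmb9 nearest at 0.48 (SE 0.27, edgeR adjusted p = 0.993 for the interaction). For Psmc2 one alternative fit gave a call. Scaled counts were 913.5, 633.8 and 558.9 at 2 Gy day 3 and 729.4, 506.4 and 465.5 at 2 Gy day 7, in the order of the replicate numbers. Without pairing the log2 change was -0.31 (edgeR adjusted p = 0.998), and with the replicate number as a block in a fit of the 2 Gy groups alone it was -0.31 with an edgeR adjusted p of 0.0196, in a fit that called 27 of 269 genes (10%). The block with all 5 groups in the fit gave an edgeR adjusted p of 0.977. That fit takes the replicate effect to be the same in all groups, while same-numbered samples deviated together throughout only within a dose. It is therefore no check on a pairing within 2 Gy. With counts under 20 raised to 20, Psmb10 was called higher at day 7 than at day 3 of 9 Gy (0.64, edgeR adjusted p = 0.0183), as were 36.8% of all genes in either direction.

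A ratio of 2 genes within a sample is free of the scaling, and it was used to ask whether inducible and constitutive subunits moved apart. The level of such a ratio also reflects how well each probe counts, so only its differences between groups are read. Psmb10 was set against Psmb7, whose product it replaces. There were 24.9, 32.3 and 24.3 Psmb10 counts per 100 Psmb7 counts with sham EVs. With 2 Gy EVs there were 25.1, 37.1 and 35.2 at day 3 and 31.4, 34.9 and 31.9 at day 7. With 9 Gy EVs there were 17.3, 16.5 and 15.2 at day 3 and 17.8, 17.8 and 24.1 at day 7. All 6 samples with 9 Gy EVs lay below all 9 others, with replicate 3 of day 7 just under the lowest sham sample. How many ratios of other genes separate the groups in this way was not counted. Neither this ratio nor those that follow are therefore read as particular to the subunits.

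The mean log2 ratio was -2.48 ± 0.23 (SD, n = 6) with 9 Gy EVs, -1.63 ± 0.20 (n = 6) with 2 Gy EVs and -1.89 ± 0.23 (n = 3) with sham EVs. Psmb10 was lower relative to Psmb7 with 9 Gy EVs than with sham EVs, by a log2 difference of -0.59 (two-sided exact permutation test, p = 0.0119, adjusted p = 0.0179). With 9 Gy EVs compared to 2 Gy EVs the difference was -0.85 (1.81-fold, exact p = 0.00216, adjusted p = 0.00649). Both are the smallest p-values these designs can give, and both count the samples of the 2 days as independent. With samples permuted within replicate numbers the adjusted p was 0.0278 for 9 Gy against 2 Gy EVs. For 9 Gy against sham EVs it was 0.0556, so that call was lost, though the difference stayed at -0.59. The blocked exact permutation p there was 0.037, the smallest that 27 permutations can give. With the other blocked p-values as they were it could not pass, so no conclusion is drawn from the lost call. With 2 Gy EVs compared to sham EVs the difference was 0.27 (exact p = 0.143, adjusted p = 0.143). Without the samples of conflicting day label the first of these differences was -0.54 (exact p = 0.0571), and without sham replicate 2 the last was 0.40 (exact p = 0.0357, unadjusted). The adjustment is by the Benjamini-Hochberg method over these 3 tests. Within day 3 the 9 Gy and sham EV groups differed by -0.72 and within day 7 by -0.45, and 3 samples against 3 cannot give an exact p under 0.1.

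Other ratios are described without a test, and none of them pairs an inducible subunit with the one it replaces. Psmb9 per 100 Psmb5 counts ranged from 41.5 to 49.2 with sham EVs and from 42.0 to 57.9 with 2 Gy EVs. For 9 Gy it ranged from 15.1 to 18.0 at day 3 and from 22.5 to 31.1 at day 7, so the 9 Gy samples lay apart from all others on both days. Psmb10 per 100 Psmb5 counts was 64.8 to 70.9 with sham EVs, and for 9 Gy 30.5 to 35.8 at day 3 and 35.9 to 53.1 at day 7. In the 2 Gy groups it was 71.9 to 91.6, so all 6 of these samples lay above all sham samples, which the 2 Gy samples of Psmb9 over Psmb5 did not. Psmd7 lay higher against Psmb7 with 9 Gy EVs. It had 12.6 to 16.8 counts per 100 of Psmb7 with sham EVs, 11.9 to 14.4 with 2 Gy EVs and 23.2 to 34.5 with 9 Gy EVs, with no overlap. Psmb5 and Psmc2 kept closer to Psmb7. Psmb5 per 100 Psmb7 counts was 36.0 to 45.6 with sham EVs and 45.4 to 54.0 with 9 Gy EVs, which just overlapped, and Psmc2 per 100 Psmb7 counts was 41.0 to 65.2 with sham EVs and 55.6 to 64.2 with 9 Gy EVs, inside the sham range.

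**Figure D4:**
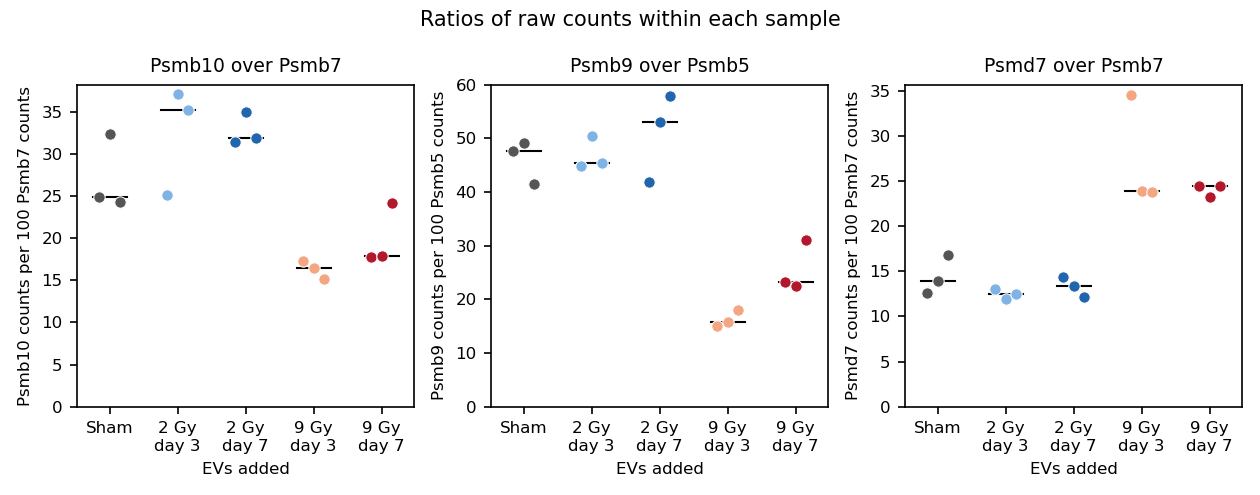
Raw counts of one subunit per 100 counts of another within each sample (vertical axes, from 0), for Psmb10 over Psmb7, Psmb9 over Psmb5 and Psmd7 over Psmb7, by the EVs added (horizontal axes). Points are samples and lines group medians: the 9 Gy samples lie below all others in the first and second plots (15.2 to 24.1 and 15.1 to 31.1) and above all others in the last (23.2 to 34.5).

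Psmb11, the thymus-specific catalytic subunit, is the one further proteasome gene with a row on the panel. It had raw counts of 1 to 18 in the 15 samples and was below the filter, so it was not tested.

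Peptides cut by the proteasome are carried into the endoplasmic reticulum by the transporter TAP and loaded onto MHC class I molecules. Of 15 genes listed for this path 5 had a row and 4 were tested, and all 4 were lower with 9 Gy EVs on both days under housekeeping scaling (median log2 change -0.91 and -0.88), where 41.3% and 49.1% of all genes tested were lower with medians of -0.46 and -0.45. B2m, the light chain of MHC class I, was lowest at -1.43 and -1.58, and stayed lower under total-count scaling at -0.41 and -0.49, past the threshold. H2-K1, a class I heavy chain, was at -0.92 and -0.94 and Tapbp, the loading factor tapasin, at -0.91 and -0.82, but total-count scaling put them at 0.11 to 0.29, short of the threshold. Tap1, the neighbour that shares its upstream sequence with Psmb9, was at -0.81 (SE 0.18, edgeR adjusted p = 0.00227) and -0.60 (SE 0.17, edgeR adjusted p = 0.00852), with 0.22 and 0.53 under total-count scaling, the latter past the threshold, and short of it under TMM scaling (-0.34 and -0.11). Psmb9 per 100 Tap1 counts, again free of scaling and without a test, was 34.3 to 44.0 with sham EVs, 37.3 to 50.7 with 2 Gy EVs, and for 9 Gy 12.1 to 27.5 at day 3 and 17.5 to 34.7 at day 7. Replicate 3 of the 9 Gy day 7 group was the single one to reach into the sham range. With 2 Gy EVs none of the 4 genes passed the test.

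A list of interferon and NF-κB pathway genes, which act on immunoproteasome genes and include a feedback inhibitor, held calls in both directions. Of 23 listed, 19 were tested, and 3 were higher and 8 lower at day 3 of 9 Gy, 2 higher and 9 lower at day 7 (median log2 change -0.53 and -0.35). The share lower was near that of all genes tested, 41.3% and 49.1%. Under total-count scaling 8 were higher and 2 lower, then 10 higher and 3 lower, where 45.0% and 53.2% of all genes were higher and 12.3% and 11.5% lower. Ifnb1, which encodes interferon-β, was higher at 4.25 (SE 0.68) and 3.95 (SE 0.65), at edgeR adjusted p of 0.000158 and 0.000167. Its scaled count was 17.9 ± 11.8 with sham EVs, 352 ± 214 at day 3 of 9 Gy and 279 ± 140 at day 7 (n = 3 each). Tyk2, a kinase of interferon receptors, was also higher on both days (1.28 and 0.76). The changes of Ifnb1 and Tyk2 kept their direction under all 5 scalings. Irf7, an interferon-induced transcription factor, was lower at -2.44 and -2.36 and Nfkb2, an NF-κB precursor, at -2.30 and -2.06, and both stayed lower and past the threshold under all 5 scalings. Irf1, the factor best known for driving Psmb9, did not pass the test at 0.90 (SE 0.71) and 1.07 (SE 0.67), and total-count scaling called it higher at 2.00 and 2.28. With 2 Gy EVs none of the 19 passed the test.

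Of 12 genes of the ubiquitin system 3 were tested, and 2 were lower with 9 Gy EVs on each day, with a median log2 change of -0.67 and -0.45. With 41.3% and 49.1% of all genes lower, 2 of 3 cannot be told from the whole panel. Under total-count scaling none was lower, and 1 was higher at day 7. With 2 Gy EVs none passed the test.

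Finally, genes with the pattern most like that of the inducible subunits were looked up among 158 genes averaging 100 counts or more, by Pearson's r of log2 housekeeping-scaled counts over the 15 samples. These r values are descriptions, since the samples share their group structure and their scaling. Psmb9 and Psmb10 had r = 0.98 with each other, and 0.90 under total-count scaling. The genes nearest to Psmb9 were Bst2 (0.98), the interferon-induced surface protein tetherin, Ccl5 (0.98), a chemokine for T cells and monocytes, and Ebi3 (0.98), a cytokine subunit. Nearest to Psmb10 were Bst2 (0.99), Ccl5 (0.98) and Ctss (0.98), a lysosomal protease. For Ctss the value was -0.33 under total-count scaling, whereas Bst2, Ccl5 and Ebi3 kept values of 0.82 to 0.89. The log2 change with 9 Gy EVs was -1.54 and -1.43 for Bst2, -2.29 and -2.07 for Ccl5 and -2.17 and -2.01 for Ebi3. For Ctss it was smaller, at -0.82 and -0.70, and under total-count scaling it was 0.20 and 0.40. These values describe genes picked for this pattern over the same samples and are given without a test. Among the subunits, Psmb7 (0.92 with both) and Psmb5 (0.86 and 0.87) came closer to the inducible pair than Psmc2 (0.59 and 0.62), and Psmd7 was negative (-0.62 and -0.60). Under total-count scaling all 4 were negative, from -0.80 to -0.56.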

How the data were processed

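RNA of 15 samples was counted on a nanoString nCounter panel (Mouse Immunology), with 3 per group by title. The authors deposited raw counts, of which 561 genes were used. Control probes were not used here and no background was subtracted. The study normalized in nSolver, with settings not given in the sources used here. The lowest deposited count was 1. All deposited sample columns were used (0 left out).

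Counts were divided by each sample's geometric mean over 14 housekeeping genes. The 269 genes averaging 20 counts or more entered one edgeR quasi-likelihood fit of 5 groups (edgeR 4.0.16, limma 3.58.1, R 4.3.3), with Benjamini-Hochberg adjustment over all of them and a threshold of 0.05. The SE was taken as the absolute log2 fold change over the square root of F, and 95% intervals used the t distribution. The 9 Gy against 2 Gy contrast compares the means of both day groups. Count ratios were tested by exact permutation over samples (SciPy 1.17.1, NumPy 2.4.6, pandas 2.3.3, Python 3.11.15). Of 6 such tests planned, the 3 with Psmb8 could not be run. Alternatives were TMM, total-count, median and other housekeeping scaling, DESeq2 1.42.0, other filters, a floor of 20 counts, fewer groups in the fit, a replicate block, both treatments of the conflicting day labels and leaving out each replicate. The ratios to subunits other than the planned pairs and to Tap1 were added after seeing the data. The fit was tested on simulated data in which no housekeeping gene changed, so that test does not bear on the choice of scaling.

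Named genes were all proteasome genes, fixed members of the antigen processing and regulator lists, the 2 largest called changes of these lists in each direction, and the 3 genes most like each inducible subunit. One gene named by this rule is not reported here. The members and lists were chosen with earlier results of these data known. Within a dose, same-numbered samples deviated together from their group means. Their r was 0.36 to 0.78 between the 2 Gy groups and 0.33 to 0.72 between the 9 Gy groups. Between other groups they did so in some replicates but not in all, with r from -0.66 to 0.65 between sham and 2 Gy day 7. The pairing within a dose comes from the values alone, and the labels do not say what a number shares. Loci and promoters come from RefSeq tables of GRCm38.p6, in which Psmb7 and Psmd7 had no promoter entry.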

Additional observations from a re-analysis of the deposited data

How the results depend on the processing

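The number of subunits called kept within 1.5 times its value under most alternatives, but not always its direction. Total-count scaling turned 4 lower and 0 higher into 0 lower and 3 higher for 9 Gy day 7, 4 lower and 0 higher into 2 lower and 2 higher for 9 Gy day 3, and 5 lower and 1 higher into 2 lower and 4 higher for 9 Gy against 2 Gy EVs. For 9 Gy against 2 Gy EVs it went from 6 to 3 under TMM scaling, median scaling and DESeq2 with its own size factors, each with 2 lower and 1 higher. For 9 Gy day 3 against sham EVs it went from 4 to 2 without both samples of conflicting day label, which leaves 1 sample in that group, assumed to vary like the others. With counts under 20 raised to 20 it went from 0 to 1, Psmb10, for day 7 against day 3 of 9 Gy, with 36.8% of all genes called, a setting that also raises housekeeping counts. The replicate block in a fit of the 2 Gy groups alone gave 1 subunit between days, Psmc2, against 0, with 10% of all genes called. The block with all groups in the fit, which assumes the same replicate effect in each, gave 0. The block changed no other subunit's call, except that Psmb5 at 9 Gy day 3 lost it in the fit of both groups alone, with the block (-0.37, edgeR adjusted p = 0.176) as without it (adjusted p = 0.129).

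Leaving out single replicates gave 3 to 4 subunits called for 9 Gy day 3, 4 to 5 for 9 Gy day 7, 5 to 6 for 9 Gy against 2 Gy and 0 to 0 in the others. The Psmb10 to Psmb7 log2 difference ranged from -0.67 to -0.45 for 9 Gy against sham EVs (exact p 0.0179 to 0.0357), from 0.19 to 0.40 for 2 Gy against sham EVs (0.0357 without sham replicate 2, whose ratio was the highest of its group, to 0.357) and from -0.94 to -0.80 for 9 Gy against 2 Gy EVs. For 9 Gy against sham EVs it was -0.54 (exact p = 0.0571) without the conflicting samples, -0.72 at day 3 and -0.45 at day 7, and for 9 Gy against 2 Gy EVs -0.97 at day 3 and -0.73 at day 7, the last 4 at an exact p of 0.1, the smallest possible. Blocked by replicate the exact p values were 0.037, 0.0741 and 0.00926 (adjusted p 0.0556, 0.0741 and 0.0278). The first and last of these exact p values are the smallest the blocked designs can give.

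Sign changes against a called value came only from scaling. Psmb5 read 0.11, 0.015 and 0.081 under TMM scaling, 0.66, 0.64 and 0.75 under total-count scaling, 0.17, 0.047 and 0.10 under median scaling and 0.13, 0.02 and 0.073 in DESeq2 with its own size factors, for 9 Gy day 3, 9 Gy day 7 and 9 Gy against 2 Gy EVs. Total-count scaling also turned Psmb7 (0.31, 0.38 and 0.48) and, against 2 Gy EVs, Psmc2 (0.61). Of 876 log2 changes of single subunits under alternatives, 795 kept their side of the threshold. Of the rest, 41 lost and 15 gained the call, 9 moved with no call and 16 reversed. Those that kept their side could still move far. For 9 Gy against 2 Gy EVs, Psmb10 went from -1.49 to -0.37 under total-count scaling with the call kept. Of the 876, 49 changed sign with neither value past the threshold. Depth limits Psmb9 and Psmb10 most, at 8 to 39 raw counts in the 9 Gy day 3 samples.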
